A study of Mus musculus with 4 samples.

Results

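Joint interzone cells were taken here as the Gdf5-positive cells of the E14.5 mouse hindlimb. The joint interzone is the band of flattened mesenchymal cells that forms where a cartilage model will be split into separate elements. Its cells switch off part of the chondrocyte programme, express the BMP-family ligand Gdf5, Wnt ligands and Wnt modulators, and later give rise to articular cartilage, ligaments and synovial lining. Interzone cells were selected on UMI counts (unique molecular identifiers, which count captured transcripts). A cell needed at least 3000 UMIs, at most 10% of them mitochondrial, at least 3 UMIs of Gdf5, fewer than 5 of Col10a1 and fewer than 2 of Ihh, the last 2 being markers of prehypertrophic and hypertrophic chondrocytes. Of 18955 deposited barcodes, 3640 met the UMI and mitochondrial limits, and 87 of these were interzone cells. The other cells, used for comparison, were the 3550 with fewer than 3 UMIs of Gdf5. A further 3 cells with high Gdf5 failed the Col10a1 or Ihh limit, all from 1 library.

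The cells came from dissected hindlimbs of E14.5 embryos (femur and tibia per the labels, with the whole hindlimb processed as the study describes it) and were measured in 4 libraries of droplet single-cell RNA-seq (3′ chemistry). All embryos carried Gli1-CreER/+, R26 LSL-tdT/+ and Tigre TRE-p21/+. Pan-Cart-p21MOE embryos (MOE) also carried Col2a1-rtTA, through which doxycycline switches on the cell-cycle inhibitor p21 in Col2a1-expressing cells. Control embryos had no Col2a1-rtTA. All pregnant females received doxycycline (1 mg/ml in water with 0.5% sucrose, and in food) from E12.5 and tamoxifen (120 µg/g, by gavage) at E13.5, so that Gli1-expressing cells and their progeny became tdTomato-positive (tdT+). Cells were sorted into tdT+ cells (libraries S1 and S3) and tdT- cells (S2 and S4). In collection 1 (S1 and S2) male MOE cells were joined with female control cells, and in collection 2 (S3 and S4) female MOE cells with male control cells. Condition was therefore read from the sex of each cell by Xist against Y-linked genes. The tdT+ and tdT- cells of a collection came from the same embryos, so the 4 sums per condition stood for 2 pools of embryos. The number of embryos in a pool is uncertain, since the study describes several per sample in one place and lists a single female MOE embryo in another. p-values over these sums measured the spread between them and not between independent animals.

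The interzone cells numbered 9 in S1, 16 in S2, 17 in S3 and 45 in S4, so that S4 held 51.7% of them. Their summed UMIs were 406059, 358584, 645147 and 1339436. Interzone cells were more deeply counted than the other cells, with a median of 26289 against 19985.5 UMIs and 5863 against 5057 genes per cell. A fixed minimum of Gdf5 UMIs is a smaller share of the transcripts in a deeper cell. The mitochondrial share was similar, at a median of 2.52% against 2.55%. Scrublet's top 5% of doublet scores held 4 of the 87 cells, and 5 had UMIs of both sexes without either reaching 80%. No interzone cell shared its barcode sequence with a cell of another library, whereas 5 barcode sequences occurred in more than 1 library among the 3640 cells.

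Gdf5, which chose the cells, lies on chromosome 2 (GRCm38, 155941023 to 155945367, minus strand). Its level in the sums of interzone cells, in CPM (counts scaled to library size, here with TMM factors), was 98.0, 299, 125 and 222 in S1 to S4, against 3.33, 6.36, 4.20 and 5.63 in the other cells, and no test was made of it. Individual interzone cells had a median of 4 and at most 34 Gdf5 UMIs. The threshold fell within a continuous distribution, with 62 cells just outside at 2 UMIs and 32 interzone cells just inside at 3 UMIs. Interzone cells held 55.3% of all Gdf5 UMIs of the 3640 cells. Single Gdf5 UMIs were also found where the gene is not known to be used. At least 1 was counted in 3 of 52 cells with 10 or more UMIs of muscle markers (5.77%, median of 36411 UMIs per cell) and in 3 of 15 with 10 or more of immune markers (20.0%, median of 55163). It was also counted in 28 of 230 cells with 10 or more UMIs of endothelial markers (12.2%, median of 42065) and in 2 of 8 with 10 or more of erythroid markers (25.0%, median of 39513.5). Of these sets, 4 endothelial cells reached 3 Gdf5 UMIs and were counted as interzone cells, and no muscle, immune or erythroid cell did. Of all other cells, 9.89% had at least 1.

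The other 3 genes used to name interzone cells behaved differently from each other. Sfrp2, a secreted modulator of Wnt signalling (chromosome 3, 83766321 to 83774316, plus strand), measured 538, 1318, 424 and 1082 CPM in interzone cells of S1 to S4 and 159, 202, 174 and 247 CPM in the other cells. It was higher in all 4 libraries without overlap, by 1.98 ± 0.17 on the log2 scale (log2 fold change ± SE, adjusted p = 5.02e-05 in edgeR). Wnt9a, a Wnt ligand of the early joint (chromosome 11, 59306928 to 59333552, plus strand), had 16.7, 16.5, 21.3 and 18.0 CPM against 11.4, 11.5, 14.7 and 9.01 CPM. These 2 sets of values did not overlap either, but the difference of 0.69 ± 0.29 on the log2 scale did not pass (adjusted p = 0.398). Krt17, an intermediate filament keratin (chromosome 11, 100256217 to 100261029, minus strand), was at 0 in interzone cells of S1 and had 57.7, 10.7 and 54.0 CPM in S2 to S4, against 4.77, 8.03, 13.2 and 6.44 CPM in the other cells. It was thus higher in both tdT- libraries and lower in both tdT+ libraries, and did not pass (1.78 ± 0.56, adjusted p = 0.180). Of 13 alternatives it passed in 5, namely without S1 (2.15, adjusted p = 0.0350), without S3 (2.41, adjusted p = 0.0298), without a filter on low counts (1.76, adjusted p = 0.00208), with Gdf5 at 5 UMIs or more (2.00, adjusted p = 0.0320) and with cells thinned to 3000 UMIs (2.32, adjusted p = 0.0221). Of the epidermal markers, Krt5 and Krt14 had no UMI in any interzone cell and were found in 0.169% and 0.0563% of the other cells. Krt10 had 5, 4, 13 and 28 UMIs in the interzone sums and did not pass (-0.15 ± 0.29), and Epcam was found in 14 of 87 interzone cells (16.1% against 10.9%) and did not pass (0.73 ± 0.39). With cells thinned to 3000 UMIs Epcam was found in 1.15% of interzone and 2.11% of the other cells.

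After each cell was thinned to 3000 UMIs, so that depth was equal, Sfrp2 was found in 64 of 87 interzone cells (73.6%) and 33.9% of the other cells. Before thinning the shares were 95.4% and 68.2%. Krt17 was found in 11.5% against 1.97% (26.4% and 7.04% before), and Wnt9a in 4.60% against 3.44% (32.2% and 18.7% before). Gdf5 itself, which every interzone cell had by rule, was found in 43.7% after thinning against 1.69% of the other cells. By library, Sfrp2 was found after thinning in 4 of 9, 14 of 16, 9 of 17 and 37 of 45 interzone cells of S1 to S4, and Gdf5 in 3, 9, 7 and 19 of them. Sfrp2 was thus in under 50% of the cells in S1 and Gdf5 in over 50% in S2. Pooled over libraries, Sfrp2 was 185 CPM in the 3199 cells with no Gdf5 UMI, 265 in the 289 cells with 1 and 387 in the 62 cells with 2. Within the interzone it was 566 in the 32 cells with 3 Gdf5 UMIs, 573 in the 12 with 4, 968 in the 28 with 5 to 9 and 1751 in the 15 with 10 or more. The mix of libraries differed between these sets, with 3 and 16 cells of the tdT- libraries S2 and S4 among the 32 and 3 and 10 among the 15, and the values were not tested. From 0 to 3 Gdf5 UMIs Sfrp2 was higher at each step within each library, from 154 to 410 CPM in S1, 181 to 1447 in S2, 166 to 423 in S3 and 220 to 577 in S4. Above 3 it was higher at each step in S4 (980, 1016 and 1911 CPM) but not in the other libraries, where the sets held 0 to 9 cells. In S3 it was 299 CPM in the 2 cells with 10 or more Gdf5 UMIs.

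**Figure D1:**
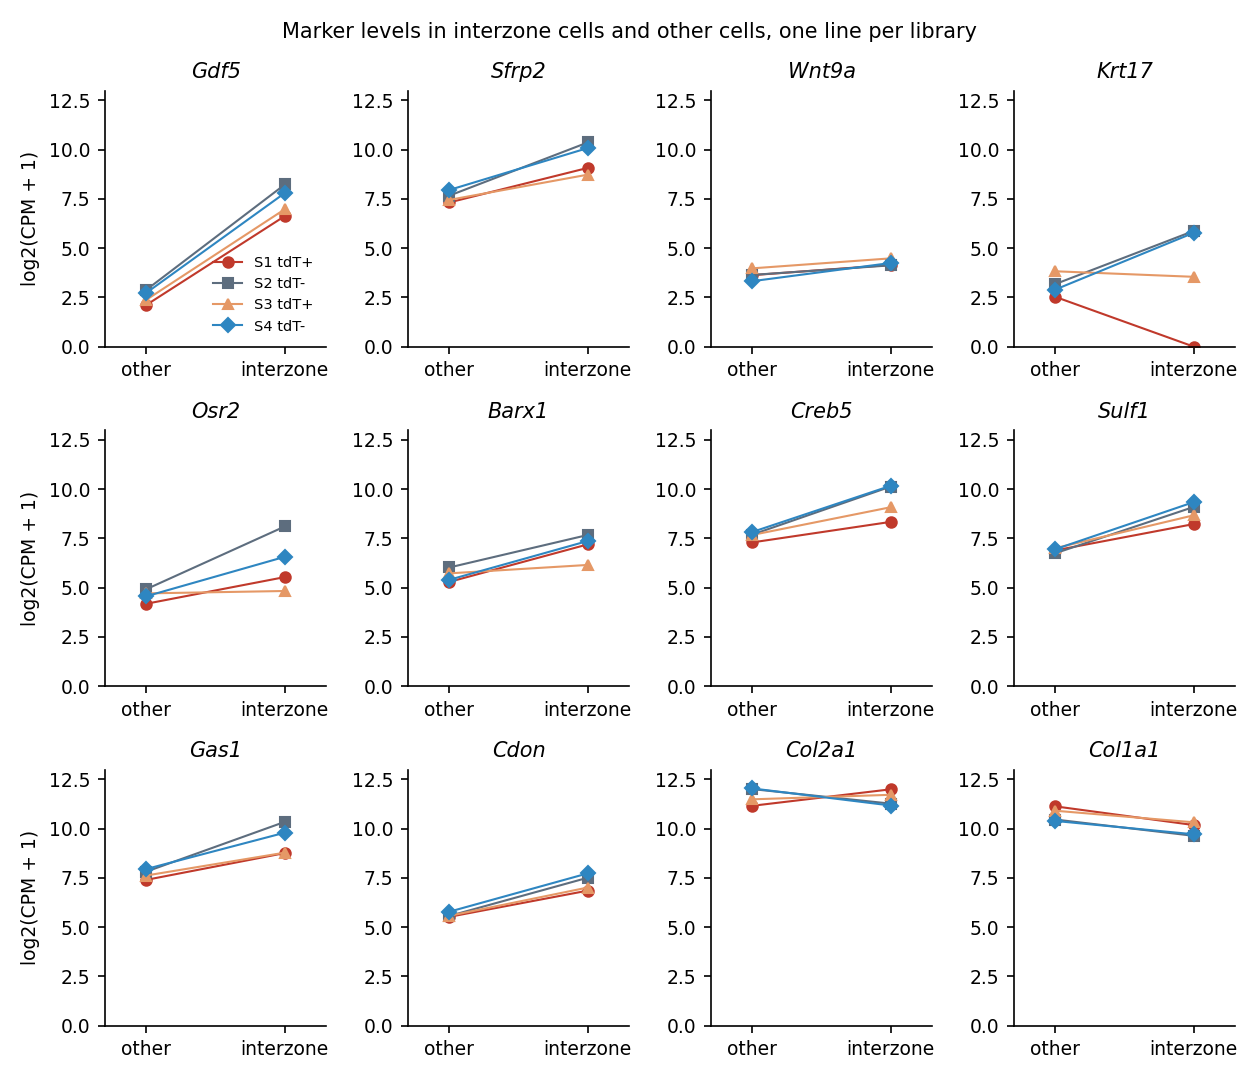
Levels of 12 genes in the other cells and the interzone cells, as log2(CPM + 1) of TMM-scaled sums, with a line for each of the 4 libraries. Gdf5 was used to choose the cells. Sfrp2, Osr2, Barx1, Creb5, Sulf1, Gas1 and Cdon were higher in interzone cells in all 4 libraries and Col1a1 lower, whereas Krt17 and Col2a1 moved in opposite directions in tdT+ and tdT- libraries. In control cells alone, not drawn here, Col2a1 was lower in interzone cells in each library.

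To ask which other genes set interzone cells apart, UMIs were summed per library for the interzone and the other cells and compared with edgeR's quasi-likelihood test with library as a block, leaving out the genes of the rule. At an adjusted p under 0.05, 226 of 14992 genes were called (1.51%). Of these, 108 were higher (0.72%) and 118 lower (0.787%) in interzone cells. Because S4 held over 50% of the interzone cells, the test was repeated without it and still called 171 genes.

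Among a list of 31 joint genes, of which 29 could be tested, 6 were higher, 2 lower and 21 did not pass, with a median log2 fold change of 0.59 against -0.05 over all genes tested. Over all genes 0.72% were higher and 0.787% lower. The list overlaps the markers that named the cells. Of the transcription factors, Osr2, a zinc-finger factor of synovial joints (chromosome 15, 35296098 to 35303305), had 45.4, 275, 27.4 and 93.7 CPM in S1 to S4 against 17.1, 29.3, 25.1 and 22.6 CPM (1.87 ± 0.35, adjusted p = 0.0104). Without library as a block it missed the threshold (adjusted p = 0.0610). The gap between its values was widest in S2 and narrowest in S3. Barx1, a homeobox factor of early joints and resting cartilage (chromosome 13, 48662998 to 48666507), had 146, 203, 70.1 and 164 CPM against 38.1, 64.0, 51.9 and 41.2 CPM (1.55 ± 0.22, adjusted p = 0.00147). Creb5, a factor known for its role in the articular programme (chromosome 6, 53287270 to 53700376), had 323, 1120, 541 and 1152 CPM against 156, 205, 203 and 225 CPM (1.84 ± 0.19). Trps1, a GATA-type repressor that acts in chondrocytes and joints, was 1.13 ± 0.09 higher on the log2 scale. All 4 of these factors were higher in every library.

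Sulf1, an enzyme that trims sulfate groups from heparan sulfate and so tunes the binding of growth factors (chromosome 1, 12692277 to 12861192), had 299, 546, 407 and 648 CPM in interzone cells against 118, 106, 127 and 123 CPM (1.96 ± 0.17). The lower joint genes were Ebf1 (-1.18 ± 0.14) and Meox1 (-1.88 ± 0.38), both transcription factors. Other genes associated with joints did not separate interzone cells from the rest at this stage. Erg, an ETS factor, was 81.6 ± 38.6 CPM (SD, n = 4) in interzone cells and 87.2 ± 9.99 CPM in the others, and Nog, a BMP antagonist, was 31.1 ± 34.3 and 43.4 ± 15.1 CPM. Prg4, the lubricin of mature joint surfaces, was counted in 4 of 87 interzone cells (4.60%) and 2.79% of the other cells, and after thinning in 1.15% and 0.958%. Gdf6, a close relative of Gdf5, had no UMI in any interzone cell, and its 36 UMIs in the other cells amount to 0.411 CPM, below the 1.09 CPM that 3 UMIs over all interzone cells would give. Its difference was not detectable at this depth.

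Cdon, Gas1, Gli2 and Gli3 of the hedgehog pathway were higher in interzone cells. Hedgehog ligands act through Ptch1 and the co-receptors Cdon, Gas1 and Boc on the Gli factors, of which Gli1 is also a target gene. Of 11 members tested, 4 were higher and 7 did not pass, against 0.72% higher over all genes. Their median was 0.25, against -0.05. Cdon had 115, 181, 128 and 211 CPM against 45.0, 46.4, 46.6 and 54.0 CPM in the other cells (1.70 ± 0.16), with no overlap. Gas1 had 433, 1299, 439 and 887 CPM against 168, 225, 196 and 246 CPM (1.73 ± 0.18). The effectors Gli3 (1.05 ± 0.16) and Gli2 (0.98 ± 0.18) were also higher. Of the target genes, Gli1 had 19.1, 16.5, 24.4 and 19.5 CPM in interzone cells against 22.5, 16.1, 22.8 and 13.8 CPM (0.15 ± 0.26, not passing). The co-receptor Boc (0.14 ± 0.21) did not pass, nor did Ptch1, at 168 ± 67.1 and 197 ± 41.3 CPM (SD, n = 4).

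In the Wnt list, 42 of 44 genes were tested. The shares over all genes were 0.72% higher and 0.787% lower. Sfrp2 and Lgr5, a receptor for R-spondins, were higher, Rspo3 and Dkk2 were lower, and 38 did not pass. Rspo3, an R-spondin ligand, had 19.1, 16.5, 18.3 and 10.5 CPM in interzone cells against 136, 38.6, 103 and 53.4 CPM (-2.35 ± 0.24), and Dkk2, a Wnt antagonist, also differed (-2.44 ± 0.34). Lgr5 had 26.3, 35.7, 38.1 and 72.0 CPM against 16.5, 16.5, 14.3 and 20.0 CPM (1.37 ± 0.24). Split by condition, it had 67.7, 88.9, 59.3 and 76.8 CPM in MOE interzone cells. Control interzone cells had 0, 9.20, 6.34 and 32.5 CPM, on 0 to 4 UMIs per sum, and lay below the other cells in S1 to S3. Among 29 BMP and GDF pathway genes tested, none was higher and Gdf10 and Bmp3 were lower. Bmp3 had no UMI in any interzone cell, against 7.96 CPM in the others, so that it was at least 7.29-fold lower when set against 3 UMIs over all interzone cells. Of 15 TGFβ genes, Tgfbi, a secreted matrix protein induced by TGFβ, was higher (1.46 ± 0.16). No FGF gene of 14, no Notch gene of 10 and no gene of 15 in the hyaluronan and synovial matrix list passed.

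Most cartilage genes did not separate interzone cells from the rest. Of 23 chondrocyte genes, Sox5 (0.70 ± 0.10) and Sox6 (0.76 ± 0.10), partners of Sox9, were higher, Pth1r, the receptor for PTHrP, was lower (-1.35 ± 0.23), and 20 did not pass. Col2a1, the main cartilage collagen, had 4082, 2463, 3363 and 2307 CPM in interzone cells and 2284, 4112, 2868 and 4210 CPM in the others. It was higher in both tdT+ libraries and lower in both tdT- libraries. This split was seen in MOE cells and not in control cells, and was not tested. Control interzone cells had 1594, 2932, 1687 and 3175 CPM in S1 to S4. Control other cells had more in each library, at 2302, 4308, 2169 and 4424 CPM (unscaled). MOE interzone cells had 4419, 1802, 3497 and 2177 CPM against 2178, 3383, 3037 and 3983 CPM (unscaled). In the hypertrophic list 3 of 8 genes tested were lower (Ibsp, Alpl and Mef2c) and 5 did not pass, and in the osteoprogenitor list 4 of 7 were lower (Ibsp, Alpl, Phex and Dlx5) and 3 did not pass. The share lower over all genes was 0.787%, and the share higher 0.72%. The lists share genes, and the Col10a1 and Ihh limits were set on interzone cells alone. The part of these limits, which removed 3 cells of high Gdf5, in the difference was not tested. Ibsp, a bone matrix protein, had 0, 0, 2 and 2 UMIs in the interzone sums of S1 to S4, where the other cells had 299, 71, 1566 and 1108.

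Over all genes 0.787% were lower in interzone cells and 0.72% higher. In the tendon list 5 of 13 genes were lower (Col1a1, Col1a2, Thbs4, Thbs2 and Kera), none was higher and 8 did not pass. In the perichondrium list 3 of 12 were lower (Crabp1, Thbs2 and Aspn), none was higher and 9 did not pass. Col1a1, the main collagen of bone and fibrous tissue, had 1159, 794, 1277 and 838 CPM in interzone cells against 2240, 1409, 1921 and 1340 CPM (-0.76 ± 0.09), lower within each library. Without library as a block it missed the threshold (adjusted p = 0.0944), as did Ibsp (0.165), Rspo3 (0.0538), Ebf1 (0.135), Myog (0.247) and Actc1 (0.277). After thinning Actc1 (0.401), Galntl6 (0.103), Gm10635 (0.209) and Brinp3 (0.208) missed it. Of the muscle genes, 3 of 8 were lower. Myog, a myogenic factor, had 1 UMI in all interzone cells, a pooled ratio of 65.4 with a 95% counting interval of 11.7 to 2583. Actc1, an actin of muscle, was at 0 in S1 to S3 and at 5.25 CPM in S4, against 8.44, 35.4, 12.8 and 83.5 CPM in the others. No endothelial, immune, erythroid, epidermal or Schwann and neural gene passed. Of the 87 interzone cells, 4 had 10 or more UMIs of the endothelial list, and their part in these results was not tested.

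The lincRNA C130073E24Rik (chromosome 8, 50743291 to 50916997, minus strand) had the lowest adjusted p of the higher genes, with 103, 57.7, 120 and 146 CPM against a mean of 15.3 ± 4.29 CPM (SD, n = 4) in the others (2.80 ± 0.18, adjusted p = 3.39e-06). Nxph1, a secreted neurexin ligand (chromosome 6, 8948431 to 9249032, plus strand), had 16.7, 217, 12.2 and 133 CPM against a mean of 1.95 ± 1.41 CPM (5.45 ± 0.57). Both tdT- libraries were above both tdT+ libraries. Man1a, a Golgi mannosidase (2.06 ± 0.19), and Glis3, a Gli-similar factor (1.95 ± 0.19), were also among the 10 higher genes of lowest adjusted p. The remaining leading lower genes were Galntl6 (-3.22 ± 0.33), Gm10635 (-3.70 ± 0.43), Col25a1 (-1.60 ± 0.20) and Brinp3, of which 1 UMI was counted in all interzone cells.

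Most patterning and cell cycle genes did not pass, and over all genes 0.72% were higher and 0.787% lower. Meis2 (1.60 ± 0.20) and Tbx18 (1.07 ± 0.19) were higher of 28 patterning genes tested, Ect2 of 40 G2/M genes, and no S-phase gene of 33 passed. Hist1h1b was lower (-1.76 ± 0.33) and 37 other histone genes did not pass. Of 18 cell-cycle inhibitor and p53 genes, Ccnd1, a G1 cyclin, was higher (0.60 ± 0.11). Of 23 genes that respond to tissue dissociation, 5 were higher (Dusp1, Ier3, Fosb, Atf3 and Jund) and none lower, against 0.72% higher over all genes, with a median of 0.11. Their summed level per cell had a median of 8061 CPM in interzone and 6459 CPM in other cells. The part of cell handling in the differences above was not tested.

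**Figure D2:**
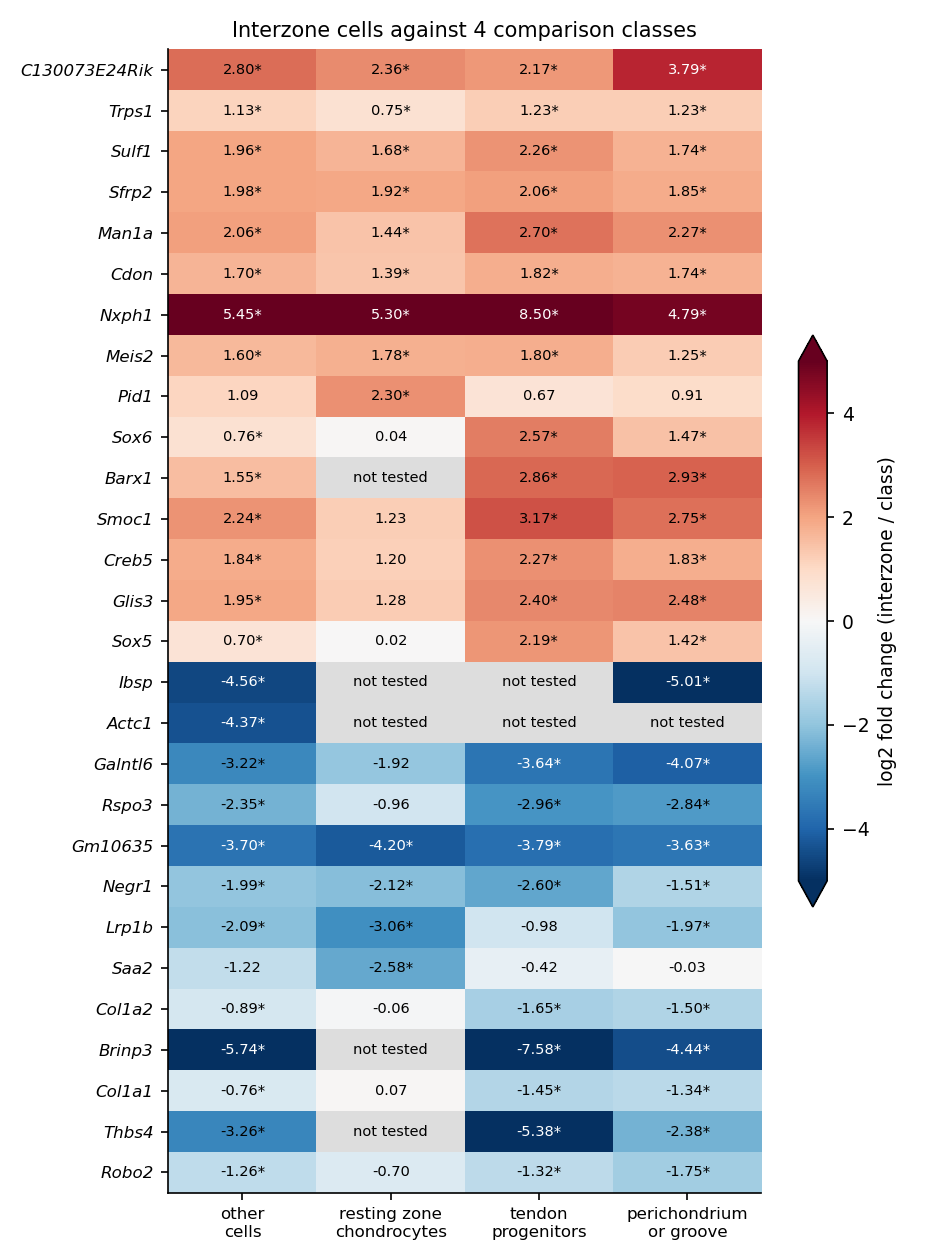
Log2 fold changes of interzone cells against the other cells and against 3 classes chosen by UMI rules, for the leading genes of each comparison. Stars mark an adjusted p under 0.05, and grey boxes genes that were not tested. Sfrp2, Sulf1, Cdon, Man1a, Nxph1, Trps1 and C130073E24Rik were higher against all 4, and Creb5 passed against all but resting zone chondrocytes.

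Interzone cells were next compared with 3 skeletal and connective tissue classes, each chosen by UMI counts with Gdf5 below 3. Resting zone chondrocytes (516 cells) had 3 or more UMIs of Barx1, Pthlh and Sfrp5 together and 10 or more of Col2a1. Tendon progenitors (388 cells) had Scx and Tnmd, and perichondrium or groove cells (820 cells) had 3 or more UMIs of Aspn and Thbs2 together without Tnmd. Genes used by either rule were left out of each test. The classes were not exclusive of the interzone. Gdf5 apart, 40 of 87 interzone cells (46.0%) met the resting zone rule, 12 the perichondrium rule and 4 the tendon rule, 7 met more than 1, and 38 (43.7%) met none.

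Resting zone chondrocytes differed least in number of genes. Of 11868 genes, 64 passed (0.539%), 39 higher (0.329%) and 25 lower (0.211%) in interzone cells. Sfrp2 was higher (540, 1321, 419 and 1056 CPM against 186, 226, 177 and 214 CPM, 1.92 ± 0.20, adjusted p = 0.00390), as were Sulf1 (1.68 ± 0.18), Nxph1 (5.30 ± 0.58), Meis2 (1.78 ± 0.21), Cdon (1.39 ± 0.19), Gas1 (1.37 ± 0.24) and Lgr5 (1.83 ± 0.28). Gm26771, an annotated antisense transcript that overlaps the end of Sfrp2 (chromosome 3, 83773853 to 83789956), was also higher (1.64 ± 0.22). Lower genes included Gdf10, a BMP-family ligand (-2.33 ± 0.31), Id3, a target of BMP signalling (-0.97 ± 0.13), Frzb, a Wnt antagonist (-1.46 ± 0.23), Cytl1, a cartilage cytokine (-0.67 ± 0.12), Saa1 and Saa2. In the joint list 4 of 24 genes were higher, in the chondrocyte list 1 of 22 was lower and 21 did not pass, and in the hedgehog list 3 of 11 were higher. Krt17 (0.19 ± 0.58) and Osr2 (0.68 ± 0.36) did not pass. This comparison rested on the tdT- libraries. Without S1, 305 genes were called. Without S2 4 genes were called and without S4 1 gene, and Sfrp2 then missed the threshold (adjusted p = 0.0647 and 0.0558) with log2 fold changes of 1.70 and 1.78.

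Against tendon progenitors 652 of 11078 genes passed (5.89%), 277 higher (2.5%) and 375 lower (3.39%). Sox6 (2.57 ± 0.15), Barx1 (2.86 ± 0.18), Smoc1, a secreted matrix modulator (3.17 ± 0.20), and Man1a (2.70 ± 0.13) led the higher genes. In the chondrocyte list 7 of 22 were higher and Pth1r was lower. Col1a2 (-1.65 ± 0.09), Col1a1 (-1.45 ± 0.09), Thbs4, a matrix protein of tendon (-5.38 ± 0.34), Chodl and Kera, the last 2 with 3 and 2 UMIs over all interzone cells, were among the lower genes. In the tendon list 8 of 11 were lower and none higher. Scx and Tnmd, which chose the class, were left out, and the part of that choice in the other genes was not tested. Without S3 276 genes were called and without S4 370. In the joint list 9 of 26 were higher and 3 lower, among them Sfrp2 (2.06 ± 0.18) and Osr2 (2.60 ± 0.36). Against perichondrium or groove cells 440 of 11669 genes passed (3.77%), 206 higher (1.77%) and 234 lower (2.01%). Barx1 (2.93 ± 0.21), Sox5 (1.42 ± 0.12), Sox6 (1.47 ± 0.11), Sox9 (0.94 ± 0.11) and Col2a1 (0.90 ± 0.21, adjusted p = 0.0374) were higher. Slit3 (-2.14 ± 0.19), Robo2 (-1.75 ± 0.13), Alpl (-3.04 ± 0.27) and Rspo3 (-2.84 ± 0.23) were lower. In the joint list 10 of 27 were higher and 3 lower. Krt17 passed in this comparison alone of the 4, at 31.1 against 1.73 CPM on average (3.77 ± 0.77, adjusted p = 0.0186), and missed it without S2 (adjusted p = 0.0736) or without S4 (0.121). Dissociation genes were higher for 8 of 23 against tendon progenitors and 9 of 23 against perichondrium, and 1 of 23 against resting zone chondrocytes.

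The genes with the pattern most like Gdf5 were sought by Pearson correlation of log2(CPM + 1) over 16 sums, 4 libraries by 4 classes, among 17921 genes. Since 12 of the sums had Gdf5 below 3 UMIs per cell by rule, this is a description. The 10 were Cdon (r = 0.975), Sulf1 (0.961), Tcf4 (0.958), Tnfaip8 (0.933), Man1a (0.932), Sfrp2 (0.929), Ptpn21 (0.925), Mgp (0.924), Carmil1 (0.924) and Tgfbi (0.920). Wnt9a (r = 0.455) ranked 1938 and Krt17 (r = 0.433) ranked 2138.

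Interzone cells varied widely among themselves. The summed level of the 23 chondrocyte genes ranged from 765 to 34679 CPM per cell, with a median of 9348 and quartiles of 4282 and 18924. In the other cells the quartiles were 3168 and 21533. The perichondrium list ranged from 197 to 4976 CPM with a median of 744, against a median of 1228 in the other cells, and 24 of the 87 cells were above that median. The summed joint list, Gdf5 left out, was above the median of the other cells in 70 of the 87. By library, the median chondrocyte sum of interzone cells was 11452, 5922, 10543 and 8052 CPM in S1 to S4, so that the tdT+ interzone cells had the higher medians. These medians mix the conditions, with 37 MOE and 4 control cells in S4. In control interzone cells alone, 3 to 9 per library, the order did not hold. In the other cells of both conditions the tdT- libraries had the higher medians, at 6192, 16161, 7325 and 12701 CPM in S1 to S4.

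**Figure D3:**
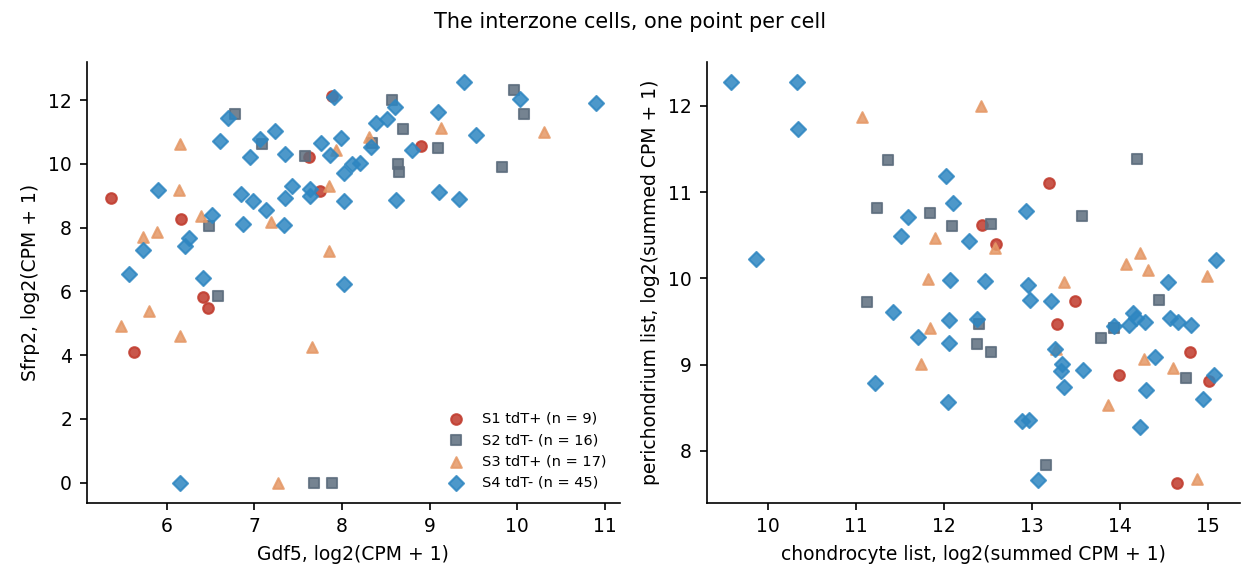
Each of the 87 interzone cells as a point, by library. The left panel gives Sfrp2 against Gdf5 and the right panel the summed perichondrium list against the summed chondrocyte list, all as log2(CPM + 1). Sfrp2 was at 0 in 4 cells, and the chondrocyte list spanned 765 to 34679 CPM.

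The sort separated cells labelled through Gli1-CreER at E13.5, with their progeny, from unlabelled cells. How completely Gli1-expressing cells were labelled was not measured here, so a tdT- cell may also descend from one. The fractions were sorted and loaded separately, so only the share within each fraction was compared. These shares do not give the proportion of interzone cells that descended from Gli1-expressing cells. Interzone cells were 9 of 620 tdT+ cells in S1 (1.45%, exact binomial 95% interval 0.666 to 2.74) and 17 of 1104 in S3 (1.54%, 0.900 to 2.45). They were 16 of 548 tdT- cells in S2 (2.92%, 1.68 to 4.70) and 45 of 1368 in S4 (3.29%, 2.41 to 4.38). Both tdT- shares were thus above both tdT+ shares, with a difference in means of 1.61 percentage points. With all cells of 1000 or more UMIs as the denominator this order was lost, since S4 was then close to S3 (1.15% each) and below S1 (1.27%), and the difference was 0.401 points. With 2 libraries against 2, the smallest two-sided p of the exact permutation test is 0.333, which is the value obtained. The tdTomato transcript followed the sort within the interzone cells, with 43.0 and 15.2 CPM in S1 and S3 and 0 and 2.25 CPM in S2 and S4. It rested on few UMIs. Control and MOE cells had 5 and 8 in S1, 0 and 9 in S3, 0 and 0 in S2, and 0 and 3 in S4. WPRE, an element carried by the transgenes' transcripts, had 1006 and 822 CPM in tdT+ and 71.4 and 379 CPM in tdT- interzone cells. CreERT2 rested on at most 4 UMIs per library. Gli1 itself had 19.1 and 24.4 CPM in tdT+ and 16.5 and 19.5 CPM in tdT- interzone cells, and did not pass in the test of library sums described next (0.29 ± 0.47).

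Gene levels of tdT+ and tdT- interzone cells were compared over the 8 sums of library and condition with condition as covariate. None of 3484 genes passed (0%), with 144 at an unadjusted p under 0.05, and none by DESeq2. The design had asked for at least 10 cells per sum. No control sum reached it, since the sums held 3 to 37 cells, and all 8 were therefore used. The genes of lowest p, none passing, were Mrpl48, WPRE, Rhoj, Cacna1d and Ntm among those higher in tdT+ cells, and Inhba, Tgfb2, Pamr1, Tm4sf1 and Pkhd1 among those lower.

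When the cells were summed per library instead, whether or not a sex could be called, with collection as a block, 16 of 7620 genes passed (0.21%). This fit was added after the data were seen, has 1 residual degree of freedom and holds no term for condition, although S4 had 37 MOE and 4 control cells. In it Col2a1 (0.64 ± 0.09), Epyc, a cartilage proteoglycan (2.97 ± 0.39), Pcp4 and Grin2a were higher in tdT+ interzone cells. Lower were Sfrp2 (-1.32 ± 0.13), Creb5 (-1.41 ± 0.18), Osr2 (-2.18 ± 0.31), Gas1 (-1.28 ± 0.17), Nxph1 (-3.54 ± 0.34), Robo1, Plxna4, Pkhd1, Tm4sf1, Tmsb4x, Inhba and Cacnb2. Krt17 (-3.08 ± 0.64, adjusted p = 0.150) did not pass. In the joint list 3 of 20 genes tested were lower and none higher, and in the chondrocyte list 2 of 22 were higher and none lower. In control cells the values of Col2a1 lay the other way and those of Sfrp2 overlapped. There Col2a1 had 1594 and 1687 CPM in tdT+ and 2932 and 3175 CPM in tdT- interzone cells, against 4419 and 3497 and 1802 and 2177 CPM in MOE cells. Sfrp2 had 1432 and 939 CPM in tdT+ and 897 and 1267 CPM in tdT- control cells, against 339 and 245 and 2150 and 1063 CPM in MOE cells. With condition as covariate the differences were 0.06 ± 0.33 for Col2a1 and -1.14 ± 0.51 for Sfrp2, and neither passed (adjusted p = 0.994 for both). Gdf5, on which cells were chosen, was also lower there, at 98.0 and 125 against 299 and 222 CPM. The median depth of the tdT+ interzone cells was greater, at 35624 and 36321 UMIs against 19433 and 24994, so that 3 Gdf5 UMIs stood for a smaller share of their transcripts. The part of depth in these differences was not tested.

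The last comparison was of MOE and control interzone cells. A condition could be given to 78 of the 87 cells. Cells without a sex call were also left out of the denominators. In S2 only 104 MOE and 276 control cells remained of 548, and both S2 shares below exceed the 2.92% over all its cells. Within a library sex and condition coincided, so uncalled cells may weigh differently on the 2 conditions. Their part in the shares was not tested. In MOE and control cells respectively, interzone cells were 5 of 242 and 3 of 255 in S1 (2.07% and 1.18%), 6 of 104 and 9 of 276 in S2 (5.77% and 3.26%), 10 of 654 and 4 of 279 in S3 (1.53% and 1.43%), and 37 of 836 and 4 of 222 in S4 (4.43% and 1.80%). The MOE share was the higher in 4 of 4 libraries, with 3.45% ± 1.99 (SD, n = 4) against 1.92% ± 0.93. The difference of 1.53 percentage points did not pass the two-sided exact permutation test (p = 0.200), nor when paired within libraries (p = 0.125, the smallest the 4 pairs allow). The count of 4 libraries depended on the minimum of 3 Gdf5 UMIs. With 2 or more it was 3 of 4, with S1 at 2.48% in MOE and 3.14% in control (paired exact permutation p = 0.375), and with 5 or more it was 3 of 4, with S3 at 0.459% and 0.717% (p = 0.250). Counting error alone was large, and in every library the exact 95% intervals of both shares overlapped. In S4 they were 3.14 to 6.05% and 0.493 to 4.55%. With each cell thinned to 3000 UMIs and at least 1 Gdf5 UMI required, the MOE share was again higher in 4 of 4 libraries. The difference was 1.58 percentage points (exact permutation p = 0.286, paired p = 0.125). The gap in S4 was then narrower, at 32 of 836 MOE and 8 of 222 control cells (3.828% and 3.604%). In S1 the shares rested on 6 of 242 MOE cells and 1 of 255 control cells (2.48% and 0.392%). S2 had 6.73% and 2.899%, and S3 1.99% and 1.79%.

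**Figure D4:**
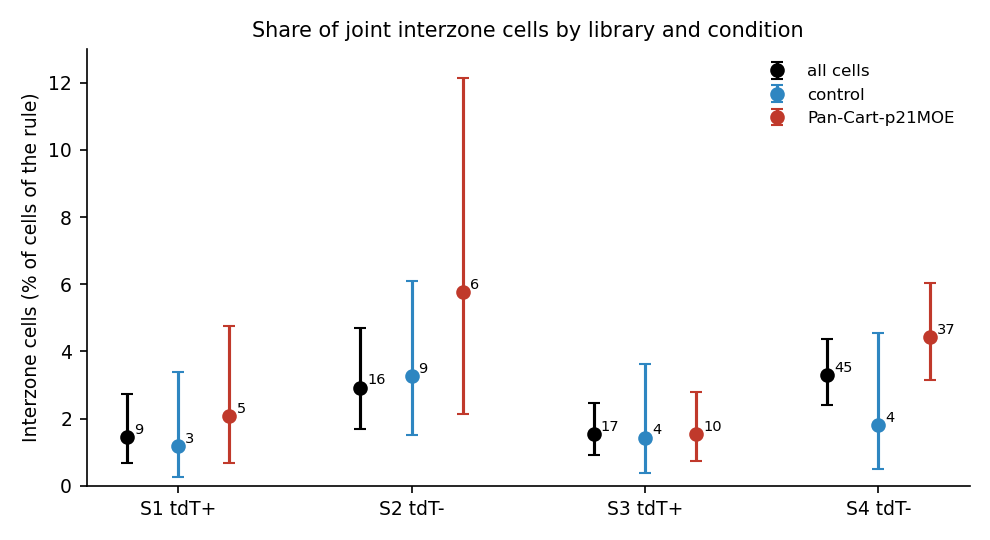
Interzone cells as a share of the cells within the UMI and mitochondrial limits, per library, for all cells, control cells and Pan-Cart-p21MOE cells. Bars are exact binomial 95% intervals, which cover counting error only, and numbers beside the points are interzone cells. The tdT- libraries S2 and S4 were above the tdT+ libraries S1 and S3, and the Pan-Cart-p21MOE point was above the control point in each library.

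Cdkn1a, the gene of p21, did not serve as a check of the condition here. It had 0, 36.8, 6.34 and 8.12 CPM in control and 6.15, 0, 62.0 and 13.1 CPM in MOE interzone cells of S1 to S4. These values overlapped and rested on 0 to 23 UMIs per sum. In the other cells Cdkn1a did not separate the conditions either (0.16 ± 0.19, not passing), and was lower in MOE in S2 and S4. WPRE, on which reads of the p21 and tdTomato transgenes fall and which thus does not tell them apart, had 759, 92.0, 209 and 65.0 CPM in control and 1533, 48.5, 793 and 406 CPM in MOE cells. It was higher in MOE cells in 3 of 4 libraries, by 1.16 on the log2(CPM + 1) scale, 1.85 without S2 and 0.67 without S4. Over all 4 libraries it did not pass (exact permutation p = 0.371, adjusted over 11 genes 0.668). In the other cells it was higher in MOE in 4 of 4 libraries, at 709, 417, 1029 and 656 against 519, 107, 423 and 70.4 CPM (unscaled), and did not pass (1.71 ± 0.33, adjusted p = 0.222).

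No gene passed between MOE and control interzone cells among 3484 tested with fraction as covariate (0%), with 125 at an unadjusted p under 0.05, and none passed by DESeq2. The genes of lowest p in each direction, none of which passed, were Adgrb3, Nhs, Lgr5, Arhgap31 and Cemip2, with higher values in MOE, and Arfip2, Whrn, Ufsp2, Tia1 and H1f0, with lower fitted values. Lgr5 had 0, 9.20, 6.34 and 32.5 CPM in control and 67.7, 88.9, 59.3 and 76.8 CPM in MOE cells, without overlap (2.67 ± 0.60, adjusted p = 0.998). Its control values rested on 0 to 4 UMIs per sum. Of the 11 genes tested singly by exact permutation, with 70 assignments and a smallest p of 0.0286, none passed. Sfrp2 had 1432, 897, 939 and 1267 CPM in control and 339, 2150, 245 and 1063 CPM in MOE cells (exact permutation p = 0.371). Pdgfra, a mesenchymal receptor, was higher in MOE in 2 libraries and lower in 2, with 179, 69.0, 69.8 and 154 CPM in control and 142, 162, 135 and 132 CPM in MOE cells (0.40 on the log2 scale, exact permutation p = 0.400, and 0.13 without S2). Wnt9a, on 4, 4, 4 and 7 control UMIs, was lower in MOE in 4 of 4 libraries (-0.78, exact permutation p = 0.0857), and the difference was -0.36 without S4. Gli1, on 0, 2, 3 and 3 control UMIs, was higher in 3 of 4 (1.64, exact permutation p = 0.143), and the difference was 0.53 without S1. With a library left out the differences of Col2a1 (S1), Cdkn1a (S1 or S3), Krt17 (S3) and CreERT2 (S4) changed sign.

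Col2a1 and Ccn2, a matricellular protein and target of YAP, moved in opposite directions by fraction. Col2a1 had 1594 and 1687 CPM in control and 4419 and 3497 CPM in MOE tdT+ interzone cells (S1 and S3). In tdT- cells (S2 and S4) it had 2932 and 3175 CPM in control and 1802 and 2177 CPM in MOE. Ccn2 had 17.1 and 12.7 CPM in control and 61.5 and 51.2 CPM in MOE tdT+ cells, and 124 and 40.6 against 64.6 and 27.1 CPM in tdT- cells. Its tdT+ control values rested on 2 UMIs each. The difference between fractions was not tested, and neither gene passed over all 8 sums (exact permutation p = 0.429 and 0.486). In the other cells Ccn2 was lower in MOE in 4 of 4 libraries, at 29.8, 52.4, 29.7 and 43.8 against 51.1, 87.8, 47.4 and 116 CPM (unscaled, -0.93 ± 0.11, adjusted p = 0.0321). This fit of the other cells was not planned.

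**Figure D5:**
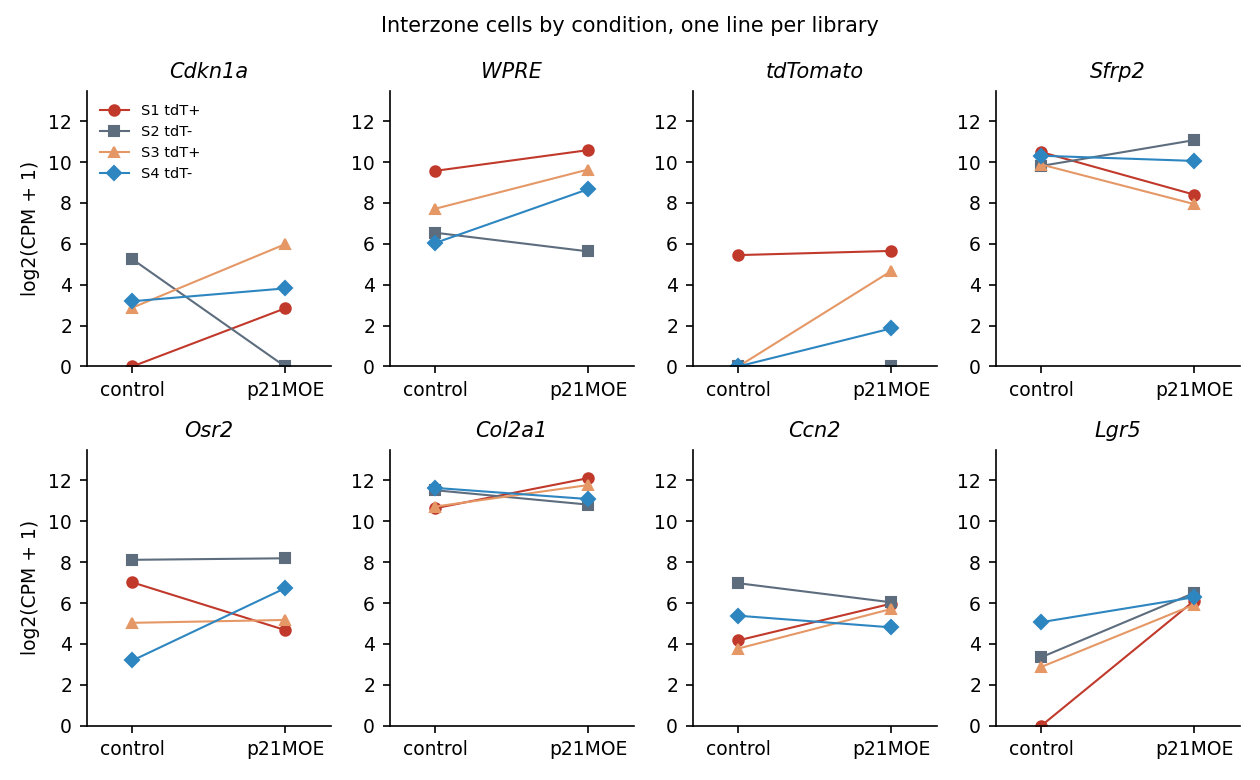
Levels of 8 genes in control and Pan-Cart-p21MOE interzone cells as log2(CPM + 1) of TMM-scaled sums, with a line per library. Each point is a sum over 3 to 37 cells. Lgr5 was higher in Pan-Cart-p21MOE cells in 4 of 4 libraries without passing the test, and the lines of Col2a1 and Ccn2 slope upward in tdT+ and downward in tdT- libraries.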

How the data were processed

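UMI counts per gene and barcode were deposited for 4 libraries, which the authors made with Cell Ranger 7.2.0 (submitters' processing notes) against GRCm38 with tdTomato, CreERT2 and WPRE added. The counts carry no normalization. Ambient RNA removal (CellBender) and doublet removal (DoubletFinder) are also described in the study. Whether the deposited counts precede or follow these steps was not tested. Tables held 32288 genes. The members, classes, gene lists and tests were chosen with earlier results of these data known.

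Cells were read in Python 3.11.15 with scipy 1.17.1 and scanpy 1.11.5. Sex was called where Xist, Ddx3y, Eif2s3y, Kdm5d and Uty together had 2 UMIs or more and 80% of them lay with Xist or with the Y-linked genes. A call that left out every cell with 2 UMIs of both sides was tried first and was kept as an alternative. UMIs were summed per library and class or condition and tested in R 4.3.3 with edgeR 4.0.16 (filterByExpr, TMM, glmQLFit, glmQLFTest, Benjamini-Hochberg adjusted p under 0.05, all genes tested), with DESeq2 1.42.0 as an alternative. The steps were tested on simulated counts. A planned minimum of 10 cells per sum left no control sum and was dropped for the comparisons of fractions and conditions. Genes were named if among the 10 of lowest adjusted p in each direction that moved one way in every library (5 of lowest p where none passed), if on a short list of markers and transgenes, or if members of a gene list (up to 4 as examples, more where a list's calls are named in full, which was decided after their values were seen). Coordinates are from GENCODE vM21. Collection numbers mark shared embryos, so they pair the tdT+ and tdT- libraries. Deviations of interzone sums from the fraction means correlated at r = 0.128 over 7620 genes. This is a single value, since with 2 libraries per fraction the deviations of the collections mirror each other. Intervals cover counting error only.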

Additional observations from a re-analysis of the deposited data

Results flagged for a closer look

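Several values stood apart and are given without an explanation. In control interzone cells tdTomato was at 42.6 CPM in S1 and at 0 in S2 to S4, and CreERT2 was at 16.2 CPM in S4 and at 0 in the others. In MOE interzone cells CreERT2 was at 6.15 CPM in S1 against 0.873 CPM in the nearest sum. In each case a sample lay far from the other 3 of its group, and the transcripts rested on 1 to 5 UMIs. These were 3 of 44 groups examined, and the number that chance would flag at such low counts was not tested.

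Col2a1 and Ccn2 differed between conditions in opposite directions in the fractions. The MOE minus control difference on the log2(CPM + 1) scale was 1.47 and 1.05 in the tdT+ libraries and -0.70 and -0.54 in the tdT- libraries for Col2a1, so that the fractions were 1.88 apart. For Ccn2 it was 1.79 and 1.93 against -0.93 and -0.57, 2.61 apart. The difference between fractions was not tested. Each tdT+ control sum held 3 or 4 cells and 2 UMIs of Ccn2.

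Of 15315 barcodes outside the UMI or mitochondrial limits, 3 had at least 3 Gdf5 UMIs, 1 in S2 and 2 in S3. They had a median of 7068 UMIs and 10.5% mitochondrial UMIs.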

How the results depend on the processing

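The count of genes between interzone and other cells was 152 to 323 over the alternatives and 171 to 286 with a library left out, except 532 without a filter on low counts. Without the replicate block it was 152, with 46 lower genes in place of 118. Against resting zone chondrocytes the 64 genes became 134 by DESeq2, 453 without the filter, 142 after thinning, and 1 to 305 with a library left out. Against tendon progenitors the 652 became 1413 without the filter, 266 after thinning (3289 genes tested), and 276 to 526 with a library left out. Against perichondrium the 440 became 938 without the filter and 231 after thinning. Without the filter 52 genes passed between MOE and control and 45 between fractions, against 0 for each. With a sum left out the fractions gave 0 or 1 gene, and the library sums gave 16. With library as a replicate block 0 of 4092 genes passed between conditions, and with the pool of embryos as a replicate block 0 of 4092 between fractions. The other sex call also gave 0. Paired within libraries (replicate block), the share by condition gave an exact permutation p of 0.125. Its difference was 1.16 to 2.01 percentage points with a library left out, and the difference by fraction shrank to -0.401 with cells of 1000 or more UMIs, where the tdT- library S4 lay below the tdT+ library S1. Alternatives were recomputed for the leading genes of each comparison and a few markers, not for every gene named. Among these no fitted fold change reversed, nor did either difference in mean shares, but single libraries did. The differences between conditions of Col2a1, Cdkn1a, Krt17 and CreERT2, tested by exact permutation, changed sign with a library left out. Between the fraction fit with condition and that of library sums, values that did not pass changed sign (Ccn1 -0.34 and 0.11, Pdgfra 0.04 and -0.04, Arhgap31 0.16 and -0.13, Nhs 0.01 and -0.21, Whrn 0.09 and -0.05). MOE was below control in S1 with Gdf5 at 2 or more and in S3 with Gdf5 at 5 or more. Several steps were chosen after seeing the data. These were thinning for the 3 classes, the sums by library, the choice between the sex calls and the use of sums under 10 cells. Also so chosen were the fit of conditions in the other cells and single genes between conditions with a library left out. Sfrp2 by Gdf5 count within libraries was a further such step. The planned minimum of 10 cells per sum could not be fitted. Sums of 3 to 10 cells in 7 of 8 cases limit what could be detected between conditions.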
